A study of Mus musculus with 67 samples.

Results

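The genes described here encode the mitochondrial respiratory chain and the ATP synthase, measured in the cerebral cortex of ageing mice. A probe was taken where the platform annotation gave exactly 1 gene symbol and that symbol belonged to the NADH dehydrogenase (Nduf), succinate dehydrogenase (Sdh), cytochrome bc1 (Uqcr), cytochrome c oxidase (Cox) or ATP synthase (Atp5) families. The same rule admitted cytochrome c and a few assembly factors, and each gene was represented by the probe with the highest mean over all arrays. It gave 45 genes on 53 probes, of 4209 genes on 4875 singly named probes and 8448 probes in all. Complex I was represented by 17 genes, which were Ndufa7, Ndufa8, Ndufa10, Ndufa12, Ndufa13, Ndufb5, Ndufb7, Ndufb9, Ndufb10, Ndufb11, Ndufc1, Ndufs1, Ndufs3, Ndufs7, Ndufv1, Ndufv2 and Ndufv3. Complex II was represented by Sdha and Sdhc, and complex III by Uqcr11, Uqcrb and Uqcrc2. Complex IV had 7 genes, which were Cox4i1, Cox5a, Cox5b, Cox6a1, Cox6b1, Cox6c and Cox7a2. Complex V had 14 genes, which were Atp5b, Atp5c1, Atp5e, Atp5g1, Atp5g2, Atp5g3, Atp5j, Atp5j2, Atp5k, Atp5l, Atp5md, Atp5mpl, Atp5o and Atp5pb. Ndufaf3, an assembly factor of complex I, and Cox10, a farnesyltransferase on the path to the haem A of complex IV, completed the list.

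The respiratory chain takes electrons from NADH at complex I and from succinate at complex II and passes them through ubiquinone, complex III and cytochrome c to oxygen at complex IV. Complexes I, III and IV pump protons across the inner mitochondrial membrane, and complex V lets them return through a rotating ring of c subunits and uses that rotation to make ATP. Neurons draw most of their ATP from this pathway, because restoring ion gradients after synaptic activity is costly. All genes listed here are in the nuclear genome, and their products are imported and assembled with the subunits encoded by mitochondrial DNA.

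Radiolabelled cDNA from the cortex of 67 C57BL/6 mice was hybridised to filters of cDNA probes, with 1 mouse per array according to the labels. Mice on caloric restriction (CR), whose feed was cut in steps from early adulthood until death, gave 9 arrays at 6 months, 10 at 16 months and 8 at 24 months, and mice fed ad libitum (AL) gave 10 arrays at each of these ages. A further 5 AL mice were 33-44 days old and 5 were 17-21 days old, and both sexes were present at every age and diet. The 3 males of the 24 months CR class were all 673 days old, whereas the females of that class were 703 to 743 days old and the 24 months AL mice 704 to 743 days old. The mice were housed individually, came from the same colony and carried no transgene or deletion named in the labels or the study's methods. Values are z-scores: the logarithm of each intensity, minus the mean of its array and divided by the SD of that array, so a difference of 1 is 1 SD of the probes on an array and not a fold change. The mean over all arrays was above 0 for 21 of the 45 genes, as for 4167 of the 8448 probes.

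Several features of the arrays bear on every value below. The 22 arrays numbered 46 and above stood apart from the 45 before them: 77.9% of all probes differed between these sets at an adjusted p below 0.05 (limma with Benjamini-Hochberg adjustment). None of the 17-21 day mice, but 2 of the 5 mice of 33-44 days, were on the later arrays, whereas each adult class had between 2 and 4 mice there. The 16 months AL male replicate 2 and the 16 months AL female replicate 2 correlated at 0.99975, against 0.98921 for the next pair, and held the same value for 24 of the 45 genes. The labels give them as mice of different sex, and whether both arrays hold RNA of the same mouse could not be settled from the files. They were counted once in the means, SDs and n of the 16 months AL class and of AL mice, and as 2 arrays in the fits, in the comparison of array sets and in the means by sex. Most differences that use the 16 months AL class are given with and without them. Of the markers of cortical cell types, 1 of 12 neuronal genes (Nefl), 2 of 7 astrocyte genes, 3 of 9 microglial genes, 1 of 7 vessel genes, 3 of 8 red cell genes, 0 of 7 oligodendrocyte genes and 0 of 3 choroid plexus genes were measured, so the tissue label could be checked only in part. Nefl, a neurofilament subunit, had a mean z of 0.25. In bulk tissue, fewer cells of a type and less RNA per cell cannot be told apart.

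The promoters of 4 members are shown because they hold the core letters bound by NRF1, a transcription factor known for driving nuclear genes of the respiratory chain, and belong to genes named in the comparisons that follow. Atp5j2, Atp5c1 and Atp5o were the genes with these letters named most often, and Atp5g3 was taken in alphabetical order from a tie with Cox6a1, Sdha and Uqcr11. They are RefSeq windows of build GRCm38.p6, 250 bases before to 50 bases after the annotated start, read along the gene's strand, with the match to GCGCANGC or its complement in capitals. Atp5j2 (subunit f) lies at chr5:145191492-145191791 (- strand), Atp5c1 (the gamma subunit, the central shaft of the rotor) at chr2:10080383-10080682 (- strand), Atp5o (the peripheral stalk subunit OSCP) at chr16:91931581-91931880 (- strand) and Atp5g3 (a c-ring subunit) at chr2:73911277-73911576 (- strand).
Atp5j2: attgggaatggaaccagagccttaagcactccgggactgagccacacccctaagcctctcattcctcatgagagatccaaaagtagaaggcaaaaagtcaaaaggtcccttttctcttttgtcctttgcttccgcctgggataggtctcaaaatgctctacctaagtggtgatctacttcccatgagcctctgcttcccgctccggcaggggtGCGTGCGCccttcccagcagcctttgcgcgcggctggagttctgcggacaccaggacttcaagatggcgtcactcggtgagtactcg
Atp5c1: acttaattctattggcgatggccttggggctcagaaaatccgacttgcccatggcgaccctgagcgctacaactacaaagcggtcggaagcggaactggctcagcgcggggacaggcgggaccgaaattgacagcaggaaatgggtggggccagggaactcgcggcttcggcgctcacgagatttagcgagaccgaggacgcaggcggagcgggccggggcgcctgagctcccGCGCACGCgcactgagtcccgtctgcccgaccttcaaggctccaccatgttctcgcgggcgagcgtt
Atp5o: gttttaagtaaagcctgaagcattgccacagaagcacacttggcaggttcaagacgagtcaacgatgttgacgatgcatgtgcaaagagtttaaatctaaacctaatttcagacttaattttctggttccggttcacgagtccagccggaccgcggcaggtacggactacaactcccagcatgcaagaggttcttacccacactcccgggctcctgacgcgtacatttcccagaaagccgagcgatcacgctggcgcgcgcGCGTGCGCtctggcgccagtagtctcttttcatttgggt
Atp5g3: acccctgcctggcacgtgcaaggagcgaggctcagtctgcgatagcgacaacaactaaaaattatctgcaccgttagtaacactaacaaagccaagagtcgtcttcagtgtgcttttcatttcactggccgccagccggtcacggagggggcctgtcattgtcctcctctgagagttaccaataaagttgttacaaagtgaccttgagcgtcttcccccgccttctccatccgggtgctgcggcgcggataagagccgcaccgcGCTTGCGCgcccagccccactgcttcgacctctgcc
The first base of the match lay at -37 for Atp5j2, -17 for Atp5c1, 12 for Atp5o and 15 for Atp5g3, counted from the start site as 1.

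A window was given for 37 of the 45 genes, and all 45 symbols matched the reference gene table. Any member windows on chromosome 18 were left out, and that table places the 45 genes on other chromosomes. The NRF1 letters were found, on either strand, in 12 of these 37 genes. By windows this was 12 of 40 (30%), against 9.95% of all 32851 windows. Those genes were Atp5c1, Atp5g2, Atp5g3, Atp5j2, Atp5k, Atp5l, Atp5o, Cox6a1, Ndufa8, Ndufb10, Sdha and Uqcr11. The GABP letters CCGGAAG were found in 11 genes (27.5% of member windows), against 8.86% of all windows. The YY1 letters AANATGGC were in 12 genes (30% of member windows), against 6.05%. The SP1 letters GGGCGG were in 18 genes (45% of member windows), against 35.7% of all windows. The ESRRA letters TCAAGGTCA were in 1 gene (2.5% of member windows), Atp5g3, against 0.423%. Matches of different motifs were counted apart and may overlap, and the member windows were richer in G and C (median 59.5%) than all windows (52.7%). These are matches of letters only, and binding was not measured.

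The first property of the 45 genes that the arrays showed was their division by array number. The mean over the 45 genes was 0.101 ± 0.029 on the later arrays (SD, n = 22), against 0.0015 ± 0.048 on the earlier arrays (SD, n = 45). The later arrays ranged between 0.033 and 0.163 and the earlier ones between -0.107 and 0.200, so the sets overlapped. With the groups in the fit, 26 of the genes were higher and 13 lower on the later arrays at an adjusted p below 0.05, which is to be read against the 77.9% of all probes past the same threshold. The median difference was 0.144 over the 45 genes and 0.017 over all probes. Values of Cox4i1, a regulatory subunit of complex IV, did not overlap between the sets (mean 0.13 later, 0.89 earlier), nor did those of Atp5l, subunit g of the ATP synthase (mean 0.77 later, 0.45 earlier). These 2 of 45 genes stand against 6.16% of all probes. Within groups, the median SD of a member was 0.214, against 0.210 for all probes.

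**Figure D1:**
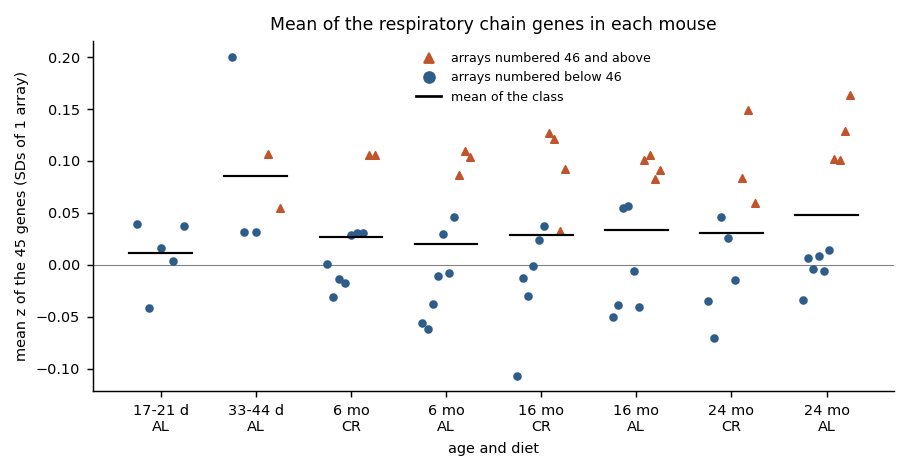
Mean z of the 45 genes in each mouse (y axis, SDs of 1 array) by age and diet, with triangles for arrays numbered 46 and above, circles for earlier arrays and a line for the class mean. The later arrays lie between 0.033 and 0.163, and the highest earlier array, at 0.200, is a mouse of 33-44 days.

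Ageing was examined first in AL mice of 24 against 16 months. No member passed the adjusted threshold in limma (0 of 45, as for 0% of all probes), and 26 of 45 differences were positive with a median of 0.016, against a median of -0.004 over all probes. At an unadjusted p below 0.05, 3 members (6.67%) were lower at 24 months and 0 were higher, against 4.52% and 2.05% of all probes, or 6.57% in either direction. These 3 were Ndufs7, Ndufaf3 and Cox5a. With array cycle and array number as blocks, 5 members passed the unadjusted threshold in limma, against 15.9% of all probes. By complex, positive differences numbered 13 of 17 for complex I (median 0.088), 2 of 3 for complex III (median 0.064), 3 of 7 for complex IV (median -0.051) and 7 of 14 for complex V (median -0.0065). The median 95% interval of a single member reached 0.19 to either side. No interval was computed for the medians by complex, and that of a single member does not measure their precision. Without the near-identical arrays, 26 differences were again positive and the median was 0.020. The median was 0.0375 within the later arrays and -0.0033 within the earlier ones.

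Ndufs7 carries the last iron-sulfur cluster of complex I, from which electrons pass to ubiquinone. Its z ranged between 0.56 and 0.91 at 24 months AL (median 0.795, n = 10), against 0.74 to 1.10 at 16 months AL (median 0.94, n = 9), and at 6 months AL it lay between 0.70 and 0.94 (median 0.845, n = 10). The ranges overlapped, but all 10 mice of 24 months lay below the 16 months mean. The means were 0.77 ± 0.12 and 0.93 ± 0.13 (SD), with a difference of -0.17 (95% interval -0.28 to -0.06, limma adjusted p = 0.607) and of -0.15 without the near-identical arrays. The difference was -0.15 within the later arrays and -0.18 within the earlier ones. With array cycle and array number as blocks, the limma adjusted p was 0.0389, and 1.09% of all probes fell below 0.05 in that fit. The near-identical arrays, both at 0.99 for Ndufs7, counted there as 2 arrays, and the blocked fit was not run without them. With the same blocks and the mean deviation of neighbouring spots on the filter subtracted, the difference was -0.02. The part of neighbouring spots in the result was not tested further. The study's methods select genes with a mean z above 0, an unadjusted p below 0.05 and a z-ratio of 1.5 or more, regardless of sign. The z-ratio was taken here as the difference over the SD of the differences of all probes, and the mean z as that of both classes. Ndufs7 was the 1 member so selected, against 2.04% of all probes.

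Ndufaf3 takes part in the assembly of complex I and is no subunit of the finished enzyme. Its z at 24 months AL lay between -1.22 and -0.88 (median -0.985, n = 10), against -0.95 to -0.68 at 16 months AL (median -0.86, n = 9). All 10 mice of 24 months lay below the 16 months mean, although the ranges overlapped. The difference was -0.17 (95% interval -0.31 to -0.03, limma adjusted p = 0.646), and -0.20 without the near-identical arrays. It was -0.10 within the later arrays and -0.22 within the earlier ones.

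Cox5a is a nuclear-encoded subunit of complex IV. Its z ranged between -1.88 and -0.97 at 24 months AL (median -1.21, n = 10), against -1.25 to -0.355 at 16 months AL (median -1.16, n = 9). The medians lay close together, and the near-identical arrays, at -0.35 and -0.36, were the highest of the 16 months class. The difference was -0.31 (95% interval -0.54 to -0.07, limma adjusted p = 0.646), and -0.15 without these 2 arrays. Of the remaining named members, Atp5mpl, a small proteolipid of the ATP synthase, had a difference of 0.32 (95% interval -0.07 to 0.72). Its z was between -0.42 and 0.18 at 24 months AL and between -0.85 and 0.12 at 16 months AL. The difference of Atp5mpl was 0.11 within the later arrays and 0.46 within the earlier ones. Uqcr11, a small subunit of complex III, had a difference of 0.15 (95% interval -0.04 to 0.34).

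**Figure D2:**
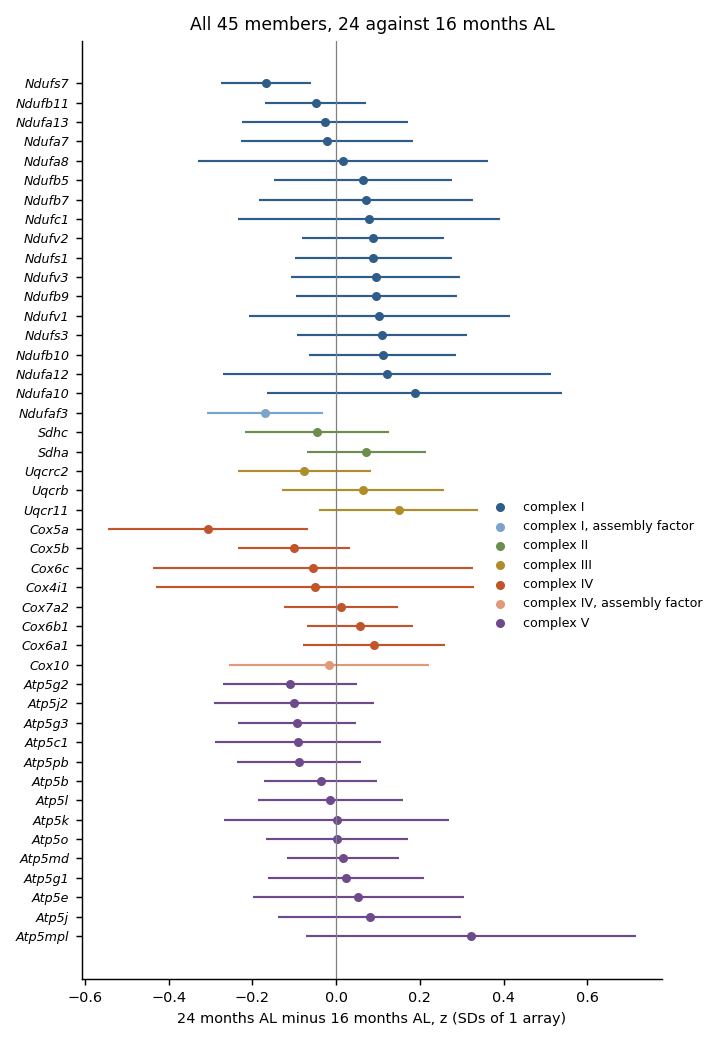
Difference of each of the 45 genes, 24 minus 16 months AL (x axis, z in SDs of 1 array), with 95% limma intervals, ordered within complexes (colours). The intervals of Ndufs7, Ndufaf3 and Cox5a lie below 0, and those of the other 42 genes include it.

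**Figure D3:**
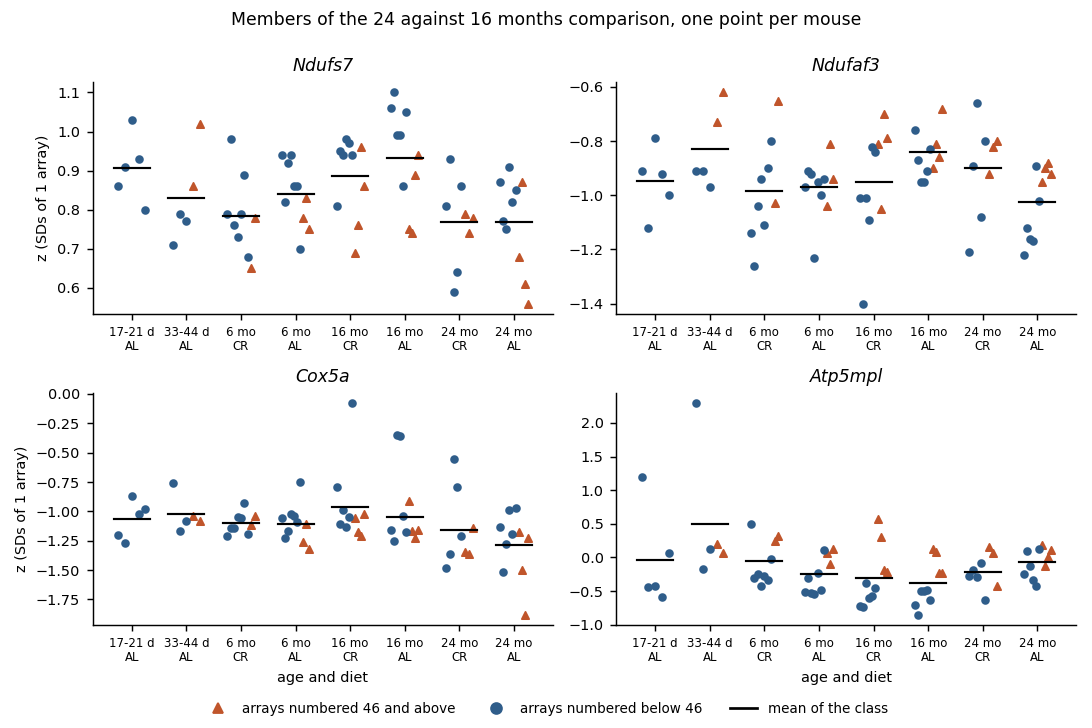
z of Ndufs7, Ndufaf3, Cox5a and Atp5mpl in each mouse (y axis, SDs of 1 array) by age and diet, with triangles for arrays numbered 46 and above, circles for earlier arrays and lines for class means. Ndufs7 averages 0.77 at 24 months AL and 0.93 at 16 months AL, with overlapping ranges.

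Over the longer interval, 24 against 6 months AL, 0 of 45 members passed the adjusted threshold in limma, as did 0% of all probes, and 27 differences were positive (median 0.018). At an unadjusted p below 0.05, 1 member was higher and 0 lower, against 0.982% and 1.91% of all probes, or 2.89% in either direction. This was Atp5j, coupling factor 6 of the ATP synthase stalk. Its z ranged between -0.03 and 0.51 at 24 months AL (median 0.155, n = 10) and between -0.63 and 0.50 at 6 months AL (median 0.005, n = 10), so the classes overlapped over most of their range. The difference was 0.24 (95% interval 0.02 to 0.46). It was 0.28 within the later arrays and 0.19 within the earlier ones. Its lowest value was 0.17 with 1 array left out and 0.11 under the other alternatives. Positive differences were found for 13 of 17 genes of complex I, 3 of 3 of complex III, 2 of 7 of complex IV and 6 of 14 of complex V. In complex III they were 0.17 for Uqcr11, 0.15 for Uqcrb and 0.06 for Uqcrc2, but 0.01 for Uqcr11 and 0.05 for Uqcrb after neighbour correction with the blocks, and -0.02 on the other probe of Uqcrc2. In the deposited values 10 of 10 mice of 24 months lay above the 6 months mean for Uqcrb, known as the ubiquinone-binding protein. Nefl, the 1 neuronal marker measured, had a difference of -0.17 in the same mice (limma adjusted p = 1), and its part in these results was not tested. The 2 other named members were Cox5a (-0.18, 95% interval -0.42 to 0.06) and Atp5g3 (-0.10, 95% interval -0.24 to 0.04). With array cycle and array number as blocks, 3 members passed the unadjusted threshold in limma, against 10.9% of all probes.

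In 16 against 6 months AL, 0 of 45 members passed at the adjusted threshold (0% of all probes) and 0 at an unadjusted p below 0.05 in limma, against 2.19% of all probes that were higher and 3.04% in either direction. The study's selection rule took 0 members, against 0.414% of all probes. With array cycle and array number as blocks, 3 members passed the unadjusted threshold in limma, against 7.91% of all probes. Positive differences were found for 28 members (24 without the near-identical arrays), with a median of 0.017 (0.0025 without them). The 5 members with the smallest p were Ndufs7 (0.10, and 0.08 without the near-identical arrays), Ndufaf3 (0.12 and 0.14), Uqcrc2 (0.13 and 0.15), Atp5md (-0.10 and -0.06) and Atp5j (0.16 and 0.15). Uqcrc2, a core protein of complex III, ranged between 0.23 and 0.47 at 16 months AL (median 0.42), inside the range of -0.05 to 0.72 at 6 months AL (median 0.23). The same 16 months mice entered this comparison and that with 24 months, so the positive values of Ndufs7 and Ndufaf3 here and their negative values there are not independent.

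In CR mice, 24 against 16 months gave 0 of 45 members past the adjusted threshold in limma (0% of all probes) and 24 positive differences with a median of 0.008. At an unadjusted p below 0.05, 2 members were lower and 0 higher, against 2.38% and 1.78% of all probes, or 4.15% in either direction, and the study's selection rule took 0 members, against 1.29%. With array cycle and array number as blocks, 5 members passed the unadjusted threshold in limma, against 12.9% of all probes. Ndufs7 was between 0.59 and 0.93 at 24 months CR (median 0.785, n = 8) and between 0.69 and 0.98 at 16 months CR (median 0.94, n = 10). Its difference was -0.13 (95% interval -0.24 to -0.01), with 7 of 8 mice of 24 months below the 16 months mean. That difference was -0.04 within the later arrays, -0.18 within the earlier ones and -0.03 after neighbour correction with the blocks. Atp5o, which joins the stator stalk to the catalytic head of the ATP synthase, was between -1.35 and -0.52 at 24 months CR (median -0.805) and between -0.84 and -0.52 at 16 months CR (median -0.695). Its difference of -0.21 (95% interval -0.39 to -0.02) became -0.11 without the 24 months CR male replicate 2 and was 0.045 within the later arrays. Atp5c1 (0.16), Cox5a (-0.19) and Ndufb10, an accessory subunit of complex I (0.10), had 95% intervals that included 0. The males of 24 months CR were younger than the females, and among females alone, an alternative added after seeing the data, 20 differences were positive with a median of -0.036. In females 0 members had an unadjusted p below 0.05, against 1.85% of all probes. The difference was then -0.11 for Ndufs7, -0.17 for Atp5o and -0.05 for Atp5c1.

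Whether diet altered the difference between 24 and 16 months was tested as a difference of differences, CR minus AL. In limma, 0 of 45 members and 0% of all probes passed the adjusted threshold. Ndufaf3 was the 1 member with an unadjusted p below 0.05 and a positive value, against 0.627% of all probes. It stood at 0.22 (95% interval 0.015 to 0.42, and 0.24 without the near-identical arrays), from a difference of 0.05 in CR mice and -0.17 in AL mice. The value was 0.07 within the later arrays and 0.32 within the earlier ones, and its lowest with 1 array left out was 0.15. Atp5c1 (0.25), Atp5j2 (0.21), Atp5o (-0.21) and Sdha (-0.13), the flavoprotein of complex II, followed, each with an interval that included 0. For Ndufs7 the values were -0.13 in CR mice and -0.17 in AL mice. In females alone, without the younger CR males, Ndufaf3 stood at 0.35, Atp5c1 at 0.05 and the median of the 45 genes at -0.056. The corresponding test by sex, female minus male in AL mice, gave 0 of 45 members past the adjusted threshold (0% of all probes) and 0 at an unadjusted p below 0.05 (0.0947% of all probes). The members with the smallest p there were Uqcrb (0.17), Cox6a1 (0.13), Cox5a (0.18), Ndufv2 (-0.11) and Ndufb11 (0.08), and the median 95% interval reached 0.38 to either side.

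Diet was then compared at fixed ages. Over the 3 adult ages, CR against AL gave 0 of 45 members past the adjusted threshold in limma (0% of all probes) and 0 at an unadjusted p below 0.05 (0.71% of all probes). Differences were positive for 16 members and negative for 29, with a median of -0.014 and a range of -0.07 (Ndufa10) to 0.06 (Atp5g1). All 3 complex III genes were negative (median -0.030), as were 11 of the 17 complex I genes, of which 6 were positive. The median 95% interval of a single member reached 0.11 to either side, the narrowest of the comparisons together with that of the sexes. The median size of a difference, regardless of sign, was 0.026. For a single member, differences of this size in z lay below what these arrays could resolve. Cox5b, a zinc-binding subunit of complex IV, averaged 0.19 ± 0.16 in CR mice (SD, n = 27) and 0.13 ± 0.11 in AL mice (SD, n = 29), a difference of 0.05 (95% interval -0.03 to 0.13). The other 4 named members were Ndufs7 (-0.04), Uqcrc2 (-0.06), Atp5j2 (-0.06) and Cox6b1 (-0.04), which bridges the complex IV monomers.

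By age, CR against AL gave 0 members past the adjusted threshold in limma (0% of all probes each time) and 0 at an unadjusted p below 0.05, at 6 months (0.462% of all probes, of which 0.272% lower), 16 months (1.03%, of which 0.698% lower) and 24 months (1.04%). Positive differences numbered 25 at 6 months, 21 at 16 months (22 without the near-identical arrays) and 18 at 24 months. At 6 months the named members were Atp5g2, a c-ring subunit (0.12), Cox6b1 (-0.07), Ndufs7 (-0.06), Atp5mpl (0.19) and Cox6a1 (-0.08). At 16 months Atp5j2 ranged between -1.10 and -0.29 in CR mice (median -0.51, n = 10) and between -0.62 and -0.21 in AL mice (median -0.44, n = 9). Its difference was -0.16 (95% interval -0.35 to 0.03), and -0.12 without the near-identical arrays. Ndufaf3 (-0.10), Atp5g1, a c-ring subunit (0.13), Cox7a2 (-0.09) and Uqcrc2 (-0.09) were the others at this age. At 24 months Atp5c1 was between 0.00 and 0.69 in CR mice (median 0.485, n = 8) and between 0.01 and 0.53 in AL mice (median 0.165, n = 10), with a difference of 0.16 (95% interval -0.06 to 0.37). That difference was 0.04 within the later arrays and 0.23 within the earlier ones. The remaining values at 24 months were -0.16 for Atp5o, 0.12 for Ndufaf3, 0.12 for Cox5b and -0.12 for Sdha. Without the 24 months CR male replicate 2 they were -0.0625 for Atp5o, 0.0515 for Ndufaf3 and 0.037 for Cox5b, and Sdha was -0.079 without the 24 months CR female replicate 5. In females alone 12 differences were positive, and Atp5c1 was -0.006, Atp5o -0.07 and Sdha -0.048.

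Adult females and males were compared over the 3 ages and both diets. In limma, 0 of 45 members passed the adjusted threshold (0% of all probes) and 0 had an unadjusted p below 0.05 (0.971% of all probes). Positive differences were found for 27 members (28 without the near-identical arrays), with a median of 0.008. Cox6b1 averaged 0.11 ± 0.11 in females (SD, n = 30) and 0.045 ± 0.15 in males (SD, n = 27), a difference of 0.07 (95% interval -0.01 to 0.14), with 20 of 30 females above the male mean. Sdhc, a membrane anchor of complex II, differed by 0.08 (95% interval -0.02 to 0.19). The other 3 named members were Atp5g3 (-0.06), Ndufs7 (0.04) and Uqcrc2 (0.05), with intervals that included 0.

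**Figure D4:**
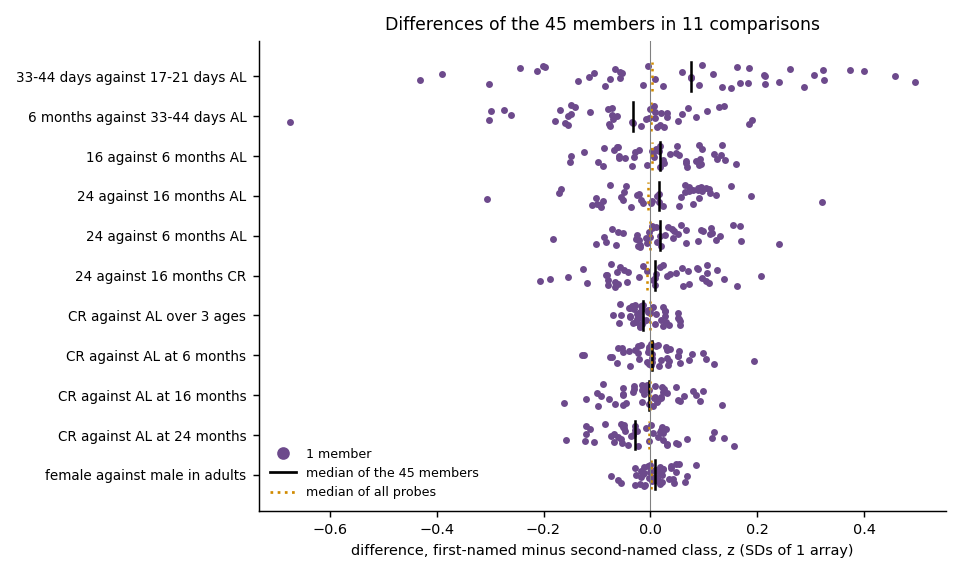
Differences of the 45 genes in 11 comparisons (x axis, z in SDs of 1 array, first-named minus second-named class), with 1 point per gene, a black line at the median of the genes and a dotted line at the median of all probes. The medians lie between -0.033 and 0.077, and the points spread most widely for 33-44 against 17-21 days. The median size of a difference there, regardless of sign, is 0.167 for the genes and 0.155 for all probes.

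The juvenile interval gave the widest spread of differences, and all probes spread to a similar extent. The median size of a difference, regardless of sign, was 0.167 over the 45 genes and 0.155 over all probes. Its classes held 5 mice each. The median limma interval of a single member reached 0.276 to either side, against 0.191 in 24 against 16 months AL. The part of class size in this spread was not tested. In 33-44 against 17-21 days, 0 of 45 members passed the adjusted threshold in limma, against 0.0947% of all probes. At an unadjusted p below 0.05, 3 members were higher and 1 lower at 33-44 days, against 4.76% and 9.28% of all probes. Differences were positive for 27 members, with a median of 0.077 against 0.003 over all probes. Within the arrays numbered below 46, which leave 3 mice of 33-44 days beside the 5 of 17-21 days, the median was 0.026, and among probes with a mean z above 0 it was -0.0042. The later arrays held no mice of 17-21 days, so age and array number cannot be fully told apart here. The 3 red cell markers measured, of 8, summed to between -2.5 and -0.64 at 33-44 days, against -0.9 to -0.36 at 17-21 days, and their part in the result was not tested.

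Members of complex I had both signs. Ndufs1, the largest iron-sulfur subunit, read 0.22, -0.17, 0.43, 0.00 and 0.36 at 33-44 days, against -0.23, -0.03, -0.31, -0.06 and -0.16 at 17-21 days. The values of 0.43 and 0.36 came from the later arrays, and the classes overlapped. The difference of 0.32 (95% interval 0.05 to 0.59, limma adjusted p = 0.297) was 0.17 within the earlier arrays. Ndufs3, a core subunit of the matrix arm, read 0.66, -0.32, 0.11, -0.39 and -0.01 at 33-44 days, against -0.46, -0.46, 0.05, -0.30 and -0.76 at 17-21 days. Its difference was 0.37 (95% interval 0.08 to 0.67, limma adjusted p = 0.276), 0.29 within the earlier arrays and 0.25 without the mouse at 0.66, which moved it by over 1.5 times. Ndufa7, an accessory subunit, read -0.41, -0.58, -0.22, -0.76 and -0.30 at 33-44 days, against -0.72, -0.65, -0.71, -0.94 and -0.93 at 17-21 days. All 5 mice of 33-44 days lay above the 17-21 days mean, with a difference of 0.31 (95% interval 0.01 to 0.60) that was 0.145 within the earlier arrays and 0.19 without the 33-44 days AL female replicate 2, whose omission also gave -0.18 for Atp5j2 and -0.15 for Ndufv2, described next. Ndufv2, an iron-sulfur subunit of the NADH-binding module, read 0.86, 1.06, 0.67, 1.07 and 0.68 at 33-44 days, against 1.19, 1.12, 1.10, 0.98 and 1.13 at 17-21 days. Its difference was -0.24 (95% interval -0.49 to 0.001), -0.10 within the earlier arrays and 0.03 after neighbour correction with the blocks.

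Atp5j2, the ATP synthase subunit whose promoter is printed above, read -0.38, -0.43, -1.01, -0.47 and -0.98 at 33-44 days, against -0.20, -0.36, -0.37, -0.85 and -0.12 at 17-21 days. The values of -1.01 and -0.98 were those of the later arrays. The difference was -0.30 (95% interval -0.58 to -0.03, limma adjusted p = 0.329) and -0.07 within the earlier arrays. Atp5mpl had the largest positive difference of the 45 genes (0.495), and this rested on an unequal set of values. It read 2.29, -0.17, 0.20, 0.12 and 0.06 at 33-44 days, against -0.42, 0.06, 1.19, -0.44 and -0.59 at 17-21 days. The most negative difference was that of Cox4i1 (-0.43, 95% interval -0.98 to 0.12), which is the gene whose values did not overlap between the earlier and later arrays, and with blocks for array cycle and array number it was -0.07. The same mouse of 33-44 days held the highest value of Atp5mpl and of Ndufs3 among all 67 arrays, and the highest mean over the 45 genes.

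**Figure D5:**
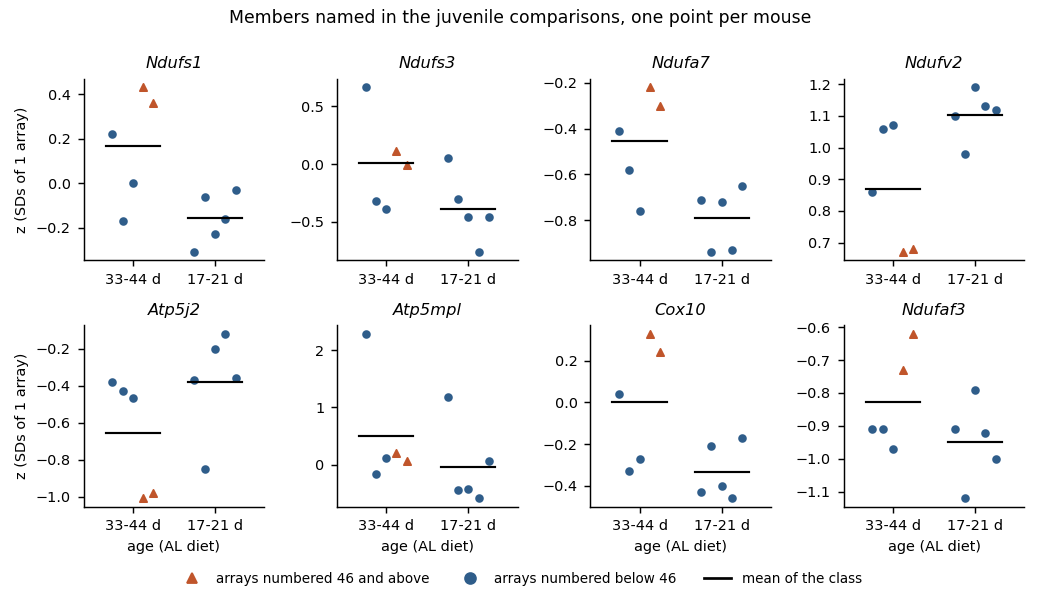
z of 8 members in each mouse (y axes, SDs of 1 array) at 33-44 and 17-21 days, with triangles for arrays numbered 46 and above, circles for earlier arrays and lines for class means. The triangles, 2 mice of 33-44 days, lie at an edge of the values of Ndufs1, Ndufa7, Ndufv2, Atp5j2, Cox10 and Ndufaf3, and Atp5mpl has a circle at 2.29.

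From the juvenile to the adult stage, 6 months against 33-44 days AL, 0 of 45 members passed the adjusted threshold in limma (0% of all probes), and 18 differences were positive with a median of -0.033. At an unadjusted p below 0.05, 4 members were lower and 0 higher at 6 months, against 2.21% and 3.1% of all probes, or 5.31% in either direction. Atp5mpl lay between -0.54 and 0.13 at 6 months AL (median -0.27, n = 10), and its difference of -0.67 (95% interval -1.16 to -0.18, limma adjusted p = 0.8) was -0.29 without the mouse at 2.29. It was -0.13 within the later arrays and -0.96 within the earlier ones. Ndufs3 averaged -0.30 ± 0.19 at 6 months (SD, n = 10) and 0.01 ± 0.42 at 33-44 days (SD, n = 5), a difference of -0.27 (95% interval -0.53 to -0.02) that was -0.15 without the mouse at 2.29, which had also the highest value of Ndufs3. Ndufa7 differed by -0.26 and Cox10 by -0.30, and these were -0.21 and -0.185 within the earlier arrays, and -0.15 and -0.17 without the 33-44 days AL female replicate 2. Cox10 read 0.04, -0.33, 0.33, -0.27 and 0.24 at 33-44 days, with the values of 0.33 and 0.24 on later arrays, and its 6 months AL values ran between -0.76 and 0.16. Ndufaf3 completed the named members with -0.15 (95% interval -0.32 to 0.02). The same 33-44 days mice entered both juvenile comparisons, so the opposite signs of Ndufs3, Ndufa7 and Atp5mpl in them are not independent.

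Pathways that feed or control the chain were described in the same way. In 24 against 16 months AL, limma called 0 genes at the adjusted threshold in each list, and at an unadjusted p below 0.05 it gave 1 lower gene each for the TCA cycle, the assembly factors and the regulators, 1 higher antioxidant gene and 0 glycolytic or carrier genes, where 4.52% of all probes were lower and 2.05% higher. Of 9 measured genes of the TCA cycle and its entry, 5 had positive differences (median 0.013), and Mdh2, malate dehydrogenase of the cycle, had the smallest p (difference -0.16, adjusted p = 0.646). Of 6 glycolytic genes 3 were positive (median 0.0015), and of 9 further assembly factors 5 were (median 0.037). Lrpprc, which stabilises mitochondrial mRNAs, was the assembly-list gene with an unadjusted p below 0.05 and had a difference of -0.16 (adjusted p = 0.67). Of 7 regulators of mitochondrial genes, Yy1, whose letters were counted in the promoters, had a difference of -0.31 (adjusted p = 0.607) and the other 6 lay between -0.047 and 0.10. The genes for carriers and quinone synthesis had 4 of 10 positive (median -0.022) and the antioxidant enzymes 1 of 8 (median -0.053), which was Prdx2, a peroxiredoxin (0.22, adjusted p = 0.757).

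The same lists gave 0 adjusted calls in limma between 33-44 and 17-21 days. At an unadjusted p below 0.05, 2 genes were higher and 1 lower for the TCA cycle, 2 higher for the regulators, 2 lower for the assembly factors, 1 lower for the carriers, and 1 higher and 1 lower for the antioxidant enzymes, where 4.76% of all probes were higher and 9.28% lower. Txn1, cytosolic thioredoxin, had a difference of -0.355 (adjusted p = 0.0559), and Sdhaf2, which attaches the flavin to Sdha, one of -0.37 (adjusted p = 0.0739). Dld, a shared subunit of the pyruvate and oxoglutarate dehydrogenases, differed by 0.43 and Idh3g, a subunit of isocitrate dehydrogenase, by -0.23. In CR against AL over 3 ages, 0 genes were called and 0 had an unadjusted p below 0.05, and the list medians lay between -0.026 for the regulators and 0.020 for the carriers.

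A further probe was present for 8 of the genes. The sign of the difference agreed between probes for 5 of 8 genes in 24 against 16 months AL, 4 of 8 in 24 against 6 months AL, 5 of 8 in 16 against 6 months AL and 4 of 8 in CR against AL. It agreed for 6 of 8 genes in each juvenile comparison. Uqcrc2 had the closest probes, with a correlation of 0.81 over 67 arrays, and differences of -0.08 and -0.06 between 24 and 16 months AL. Atp5c1 (0.66) and Atp5md (0.53) followed, whereas the correlation was -0.41 for Atp5b, the catalytic beta subunit, -0.37 for Atp5g1, -0.32 for Sdha, -0.04 for Cox4i1 and 0.13 for Uqcrb. Once group, array cycle and array set were removed, Uqcrc2 stood at 0.58, Cox4i1 at 0.52, Atp5md at 0.24, Atp5c1 at 0.23 and Uqcrb at 0.20. Sdha then stood at -0.05, Atp5g1 at -0.27 and Atp5b at -0.69. The arrays share hybridisation and position effects, so these correlations are descriptive.

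Co-variation among the 45 genes was slight. After group means, array cycle and array set were removed, the median correlation between members over 67 arrays was 0.029 (quartiles -0.18 and 0.23), against -0.010 (quartiles -0.20 and 0.19) among all 4875 singly named probes. It was 0.090 within complex I, -0.007 within complex III, -0.047 within complex IV and -0.020 within complex V. The closest pair was Ndufb10 and Cox4i1 (0.79), which was 0.49 after the deviations of neighbouring spots were subtracted. Ndufs3 and Atp5mpl stood at 0.74 before and 0.85 after that step, and both had their highest value in the same mouse of 33-44 days.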

How the data were processed

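The authors extracted filter images with ArrayPro and transformed log intensities to a z-score for each array. The deposited score (array means -2e-04 to 1e-04, SDs 0.9999 to 1.0001) was used as it stands. The log base and any background correction were not given in the sources used here, and no intensity was used, so the number of arrays limits the precision. Groups came from the age, diet and sex in the labels. The label of 1 array repeats another's description and was placed by its title and characteristics.

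Limma 3.58.1 in R 4.3.3 fitted a mean for each of 16 groups over 67 arrays and all 8448 probes (1 missing value), with two-sided moderated tests, Benjamini-Hochberg adjustment over all probes, a threshold of 0.05 and sexes weighted equally. The script was tested on simulated data. Their noise was independent between probes and arrays and held no shift between array sets, so that test does not cover these features. P-values measure the spread between arrays of a group. In the fit without blocks this spread holds the shift between array sets as well as differences between mice. The members, gene lists and tests were chosen with earlier results of these data known. Named in each of 13 comparisons were the members past the threshold or, where fewer than 5 passed, the 5 with the smallest p. Values by class were given for members named in at least 3 comparisons and, chosen after their values were seen, for Atp5j, Cox10 and the juvenile members. Genes on 2 probes were named for the agreement of their probes. Promoters were searched for 5 motifs, and of the windows with the NRF1 letters, 4 were printed by how often the gene was named, with ties in alphabetical order.

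Alternatives were median centring, quantile normalization, only probes with a mean z above 0, only the compared groups, blocks for array number (46 and above) and array cycle, subtraction of the mean deviation of neighbouring spots (within 2 spots, on an inferred layout of 16 blocks of 22 columns and 24 rows), either set of arrays alone, removal of the near-identical arrays, the mean over all probes of a gene, the study's selection rule without its analysis of variance, each array left out and, added after seeing the data, the younger 24 months CR males left out. The study's methods mention balanced batches, to which the labels tie no array number.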

Additional observations from a re-analysis of the deposited data

Results flagged for a closer look

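In 110 sets of arrays (the 9 members with values by class, and the mean over the 45 genes, in groups of 4 or 5 mice), 7 held a mouse far from the rest of its group, where chance would mark about 1 in 20. Cox5a had 3 of these: -0.36 in the 16 months AL female replicate 2, against -1.25 to -1.16 in the others, -0.08 in the 16 months CR female replicate 3, against -1.18 to -1.02, and -1.88 in the 24 months AL male replicate 5, against -1.28 to -1.13. The mouse at -0.36 is of the near-identical pair, whose male array read -0.35. Atp5c1 was at 0.59 in the 6 months CR female replicate 5, against 0.13 to 0.17, and Atp5o at -0.59 in the 6 months AL female replicate 4, against -0.93 to -0.84. These mice and the 24 months AL male replicate 5 were on arrays numbered 46 and above. Uqcrc2 was at 0.59 in the 24 months CR female replicate 4, against 0.05 to 0.18, also on a later array. Atp5j2 was at -0.79 in the 6 months AL female replicate 1, against -0.49 to -0.40.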

How the results depend on the processing

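For the 13 counts of members, 13 medians and 65 named differences, 1097 values were computed under alternatives and 2324 with 1 array left out. With 1 array left out, 0 counts left 0 and 0 named differences turned or crossed the threshold although 35 of the 65 moved by over 1.5 times (smallest adjusted p = 0.0507, for Ndufs3 in 33-44 against 17-21 days without the 33-44 days AL male replicate 2). The medians then ranged between -0.0133 and 0.0328 for 24 against 16 months AL, and between 0.0292 and 0.140 for 33-44 against 17-21 days. With blocks for array cycle and array number, 1 member, Ndufs7, passed in 24 against 16 months AL (difference -0.17, limma adjusted p = 0.0389), and the study's selection rule also gave 1. The blocked fit counted the near-identical arrays as 2 arrays and was not run without them. No other named difference passed the threshold under any alternative run. The median for 33-44 against 17-21 days was -0.00417 with only probes of mean z above 0. Of the values of named differences, 12 turned sign, and the medians, which lay near 0, changed sign in 23 values of 11 comparisons. With neighbour correction Ndufb10 in 24 against 16 months CR was -0.0536 and Cox6a1 in CR against AL at 6 months was 0.0089, and with blocks added they were -0.0548 and 0.0077, and Ndufv2 in 33-44 against 17-21 days was 0.033. Within arrays 46 and above, Uqcrc2 was -0.04 in 16 against 6 months AL and -0.0592 between the sexes, and Atp5o was 0.045 in 24 against 16 months CR, 0.0375 in CR against AL at 24 months and 0.065 for CR minus AL. With the 24 months CR males left out, an alternative added after seeing the data, Atp5c1 was -0.05 in 24 against 16 months CR and -0.006 in CR against AL at 24 months. The causes were not tested.

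The comparison of 33-44 with 17-21 days has no value within arrays 46 and above, which hold no mice of 17-21 days, and the selection rule was not run for the 2 differences of differences. Where leaving out an array left 1 in a group, that array was assumed to vary like the others. No paired analysis was possible because the labels carry no replicate numbers, and replicates were numbered in accession order. The blocks for array cycle come from the array numbers, which the labels do not tie to shared litters or days. Arrays of 2 to 5 mice per group limit the precision, and signal over background could not be assessed from z-scores.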
